A study of Mus musculus with 13 samples.

Results

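Adrenergic receptors and the cAMP pathway below them were examined in gluteal white adipose tissue (WAT), a subcutaneous fat depot, through 9 genes taken by name from the 34419 genes of the count table. The 9 genes were the receptors *Adrb1*, *Adrb3*, *Adra1a* and *Adra2a*, the adenylyl cyclase *Adcy3*, the phosphodiesterases *Pde3b* and *Pde4d*, the protein kinase A (PKA) subunit *Prkar2b*, and the potassium channel *Kcnk3*. All 9 were found, and all 9 passed the filter on low counts. Male C57BL/6J mice lived at 22°C (n = 7) or at 29°C (n = 6) from the day of birth until tissue was taken at 13 weeks, so that cool housing could be compared with thermoneutral housing. The hair of the hind part of the body was removed in weaned mice of both temperatures, and each mouse lived alone in a cage with sparse bedding and nothing to build a nest from. RNA of the whole depot was sequenced as 1 library per mouse, so all cell types of the depot contributed. In such bulk RNA, fewer cells of a type and less RNA per cell cannot be told apart.

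Noradrenaline released from sympathetic nerves acts on adipocytes through beta receptors, which couple to the stimulatory G protein and adenylyl cyclase and so raise cAMP. Alpha-2 receptors couple to inhibitory G proteins and lower cAMP, whereas alpha-1 receptors signal through Gq and calcium. cAMP releases the catalytic subunits of PKA from the regulatory subunits, and PKA then phosphorylates perilipin and hormone-sensitive lipase, which starts lipolysis, and CREB, which binds the cAMP response element in DNA. Phosphodiesterases end the signal by hydrolysing cAMP. Insulin acts against lipolysis in fat cells largely by activating the phosphodiesterase that *Pde3b* encodes.

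Library totals lay between 22356637 and 25245785 counts, with 5 of the 7 libraries at 22°C (replicates 1 to 5) at or below 22857079 and the other 8 libraries at or above 24821549. No library at 29°C had a low total, so for each of the 9 genes the value within the 8 libraries of higher totals (2 at 22°C and 6 at 29°C) is given beside the pooled one. Adipocyte markers were abundant in every library: the 10 markers summed to between 31800 and 47900 CPM (counts relative to the scaled total of the library), and none of the 10 was called between temperatures. Skeletal muscle RNA varied far more. The 15 muscle markers summed to between 784 and 85300 CPM at 22°C (median 6810) and to between 115 and 6700 CPM at 29°C (median 1440), and 22°C replicates 1 and 7 stood apart with 62168 and 85297 CPM. *Ucp1*, the uncoupling protein of brown and beige fat, had 13 counts in all libraries together and was not tested. Of the 7 other markers of brown and beige fat, 3 (*Cidea*, *Cox8b* and *Otop1*) were higher at 22°C (edgeR, adjusted p below 0.1), none was lower and 4 were not called, where 1.94% of all genes tested were called. The brown and beige markers summed to 192 and 171 CPM in 22°C replicates 1 and 7, the libraries rich in muscle RNA. Their sum was 54.5 to 76.2 CPM in the other libraries at 22°C and 21.5 to 41.6 CPM at 29°C. These 3 calls come from the fit of all 13 libraries, and fits with the muscle score or library totals are not given here for them.

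None of the 9 genes was called between 22°C and 29°C, at an adjusted p-value (P-adj) below 0.1 in edgeR, against 345 of 17779 genes tested (1.94%; 130 higher and 215 lower at 22°C). DESeq2 called 1676 of 16388 genes (10.2%) and likewise none of the 9. At an unadjusted p below 0.05, edgeR gave 2 of the 9 genes (22.2%), *Adrb1* and *Pde4d*, beside 18.5% of all genes tested. DESeq2 gave the same 2, and its share over all genes at this p was not counted, so its 2 cannot be set against a background. The ranges of the temperatures overlapped for each of the 9 genes, as they did for all but 1.24% of the genes tested. The median log2 fold change (22°C over 29°C) of the 9 was -0.07, and that of all genes tested was 0.01.

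**Figure D1:**
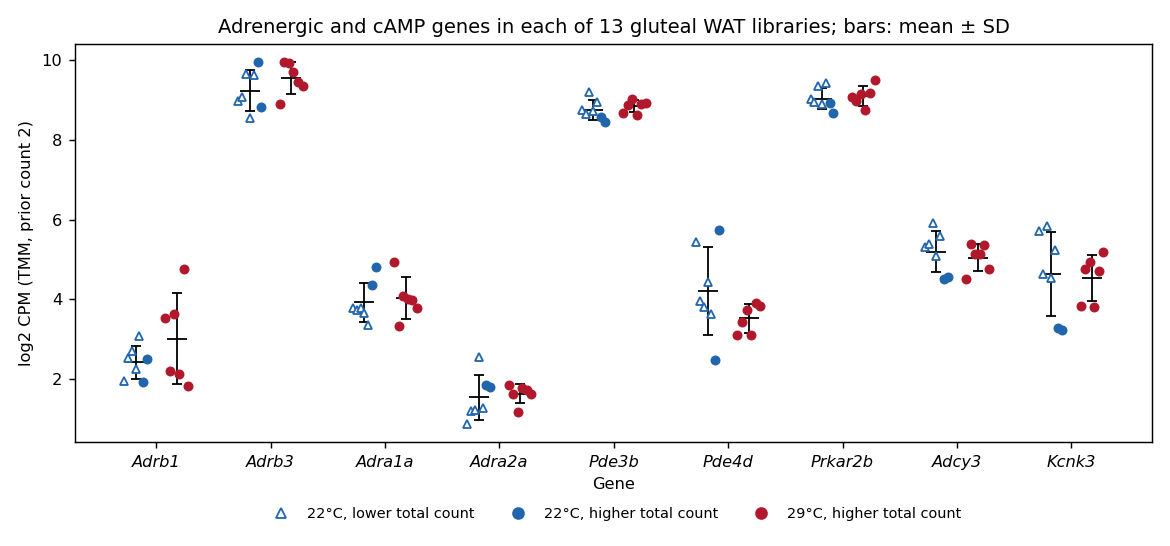
Log2 CPM of the 9 genes (y axis) in the 7 libraries at 22°C (blue) and the 6 at 29°C (red), with open triangles for the 5 libraries of lower total count; bars show the mean ± SD of each temperature. The temperatures overlap for every gene, Pde4d spreads most widely at 22°C and Adrb1 at 29°C, and the 2 filled blue points of Adcy3 and Kcnk3 lie below the open triangles.

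Counts per exon length, scaled to the same sum in each library (TPM), were used to compare genes with each other. On this scale *Adrb3* was the most abundant of the 8 adrenergic receptor mRNAs compared here in every library. *Adrb3* encodes the beta-3 receptor, the main beta receptor of rodent fat cells. Its level was 571 ± 203 TPM (SD, n = 13), and it made up between 91.9% and 96.2% of the summed TPM of these 8 genes. The mean share (± SD) was 93.9% ± 1.68 in the 7 libraries from cool housing, against 94.5% ± 1.61 in the 6 from thermoneutral housing. The receptors that followed were *Adra1d* (17.1 TPM), *Adrb1* (6.31 TPM), *Adra1a* (5.09 TPM), *Adra1b* (2.30 TPM), *Adra2a* (1.71 TPM), *Adra2c* (0.438 TPM) and *Adra2b* (0.163 TPM), as means over the 13 libraries. Below *Adrb3* the order was not sharp. The range of each of these receptors overlapped that of the next, and *Adrb1* exceeded *Adra1a* in 6 of 13 libraries. Among the 9 genes described here, *Prkar2b* (406 TPM) and *Pde3b* (134 TPM) followed *Adrb3*, and *Kcnk3* (18.8 TPM), *Adcy3* (15.8 TPM) and *Pde4d* (3.88 TPM) lay far lower. *Adrb3* exceeded *Prkar2b* in 10 of 13 libraries and *Kcnk3* exceeded *Adcy3* in 8 of 13, with overlapping ranges, whereas *Prkar2b* and *Pde3b* each lay above the whole range of the next gene. These per-length levels rest on exon lengths of an older annotation and on the count of a whole gene, not of 1 isoform.

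**Figure D2:**
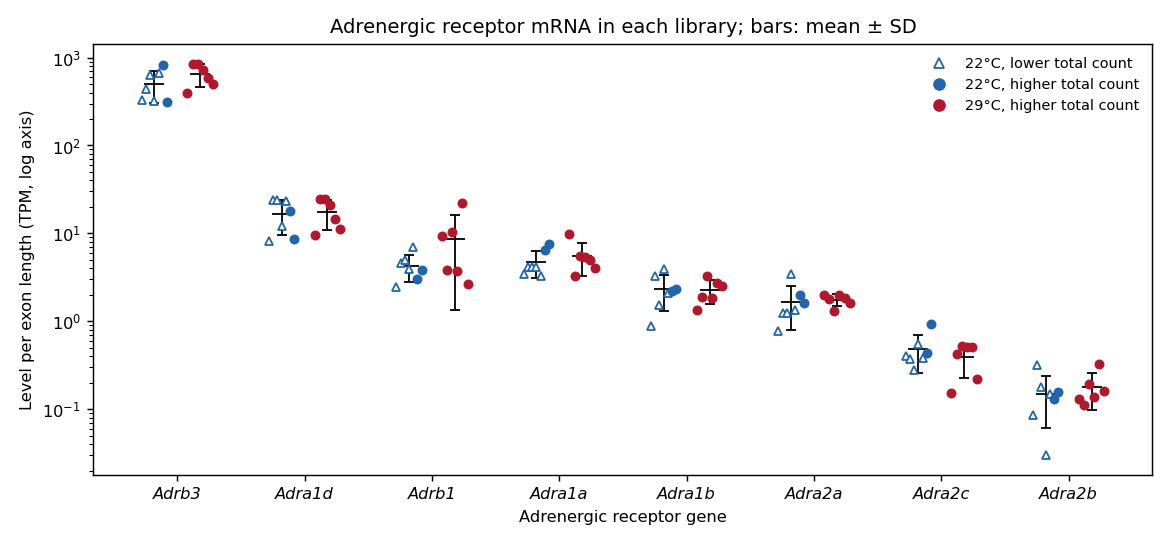
TPM of 8 adrenergic receptor genes (y axis, log scale) in each library at 22°C (blue; open triangles for lower library totals) and 29°C (red), ordered by mean level, with the mean ± SD. Adrb3, between 314 and 854 TPM, stands above the other 7 receptors in every library, while Adra2b and Adra2c stay below 1 TPM.

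*Adrb3* ranged from 378 to 995 CPM at 22°C, with a median of 544, and from 482 to 999 CPM at 29°C, with a median of 774. The lowest value at 22°C was replicate 4 and the highest replicate 6, which lay beside the 2 highest libraries at 29°C. Cool housing averaged 641 ± 227 CPM (SD, n = 7), and thermoneutral housing 779 ± 201 CPM (SD, n = 6). The log2 fold change was -0.28 ± 0.24 (SE; 95% interval -0.79 to 0.23; edgeR P-adj = 0.561), so a level at 22°C between 0.578 and 1.17 times that at 29°C is compatible with these libraries. *Adrb3* was lower where muscle RNA was higher (Pearson r = -0.60 and Spearman rho = -0.63 with the mean log2 CPM of the muscle markers, each centred on the mean of the temperature, over 13 libraries, as a description), and with that muscle score as a covariate the log2 fold change was -0.03. Within the 8 libraries of higher totals it was -0.11 (edgeR P-adj = 0.919). The exons of *Adrb3* share 839 of 3376 bases (24.9%) with *Gm45470* on the opposite strand. *Gm45470* had between 13.2% and 26.1% of the count of *Adrb3* in a library, and its log2 fold change was -0.27 (edgeR P-adj = 0.474). Because it is not given whether reads were counted by strand, reads of the shared stretch cannot be assigned to one or the other.

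*Adrb1* encodes the beta-1 receptor, the beta receptor best known from the heart, which also acts in fat. It ranged from 3.70 to 8.35 CPM at 22°C (median 5.61) and from 3.45 to 27.0 CPM at 29°C (median 7.96). At 29°C the libraries divided: replicates 1, 3 and 5 had 11.4, 12.3 and 27.0 CPM, above every library at 22°C, and the other 3 had between 3.45 and 4.48 CPM. Its log2 fold change was -0.94 ± 0.43 (SE; 95% interval -1.87 to -0.01), with an unadjusted p of 0.0476 and an edgeR P-adj of 0.266. Without 29°C replicate 5 alone, the log2 fold change was -0.40, and within the libraries of higher totals it was -1.18 (edgeR P-adj = 0.594).

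The RefSeq promoter table (build GRCm38.p6) held 5 of the 9 genes, namely *Adrb1*, *Adra2a*, *Pde4d*, *Prkar2b* and *Adcy3*. The 100 bases before each start were searched on both strands for the half-site of the cAMP response element, TGACG or its complement CGTCA, since CREB is a factor through which PKA acts on genes. Of all 32851 promoters in the table, 10.5% held a half-site in this window and 0.986% held at least 2 that do not overlap. The full element TGACGTCA, whose 2 half-sites overlap, was held by 1.15%. *Adrb1* held 1 half-site, beginning at position -90 from the start. *Adra2a* held 1 at -69, in a window that lies in annotated exons and is therefore not printed, and the windows of *Pde4d*, *Prkar2b* and *Adcy3* held none. For *Pde4d* only 1 start was searched, and 72 of the 100 bases of its window lie in annotated exons. *Adcy3* and *Prkar2b* had 2 windows each, and 1 window of *Adcy3* lies wholly in exons. Other starts of these genes and bases beyond these windows were not searched. Of the pathway genes that changed, described further on, *Nr4a1* and *Pde8a* had an entry in the promoter table, and *Grk3* and *Akap12* had none. The window of *Adrb1* is shown with those of *Nr4a1* and *Pde8a*. It lies on the plus strand at chr19:56722017-56722116, that of *Nr4a1* on the plus strand at chr15:101266746-101266845 with half-sites at -69 and -40, and that of *Pde8a* on the plus strand at chr7:81213165-81213264 with a half-site at -84. None of the 3 windows touches an exon of the GENCODE M21 annotation of the same build, and capitals mark the half-sites. A match of letters is a description of the sequence and shows no binding.
Adrb1: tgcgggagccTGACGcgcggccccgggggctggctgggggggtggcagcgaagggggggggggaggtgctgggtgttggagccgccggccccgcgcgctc
Nr4a1: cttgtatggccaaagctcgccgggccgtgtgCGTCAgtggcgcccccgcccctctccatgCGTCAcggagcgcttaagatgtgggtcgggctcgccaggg
Pde8a: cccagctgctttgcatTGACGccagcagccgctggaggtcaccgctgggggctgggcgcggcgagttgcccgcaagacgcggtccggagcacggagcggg

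*Adra1a*, an alpha-1 receptor that signals through Gq, ranged from 10.1 to 28.3 CPM at 22°C (median 13.8) and from 10 to 30.8 CPM at 29°C (median 16.0). Single libraries were high at both temperatures, namely 22°C replicates 6 and 7 (20.4 and 28.3 CPM) and 29°C replicate 1 (30.8 CPM). The log2 fold change was -0.11 ± 0.27 (SE; 95% interval -0.69 to 0.48; edgeR P-adj = 0.866). Within the 8 libraries of higher totals the sign turned, to 0.49 (edgeR P-adj = 0.609), since the 5 libraries of lower totals at 22°C all lay between 10.1 and 13.8 CPM.

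*Adra2a*, the alpha-2A receptor that restrains cAMP production and lipolysis, was the lowest of the 9 genes per exon length. It ranged from 1.74 to 5.83 CPM at 22°C (median 2.33) and from 2.17 to 3.53 CPM at 29°C (median 3.11), from between 33 and 139 counts per library. Only 22°C replicate 4, with 5.83 CPM, lay above the range at 29°C. The means were 3.04 CPM at both temperatures, and the log2 fold change was 0.00 ± 0.25 (SE; 95% interval -0.54 to 0.54; edgeR P-adj = 0.997), an estimate whose sign differed between alternative fits, with 0.18 within the libraries of higher totals (edgeR P-adj = 0.759). Nor were the other receptors compared here called, beside 1.94% of all genes tested. Log2 fold changes were 0.11 for *Adra1b* (edgeR P-adj = 0.861), 0.02 for *Adra1d* (0.985) and 0.45 for *Adra2c* (0.531), and *Adra2b*, with 76 counts over all libraries, was not tested.

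The balance of beta and alpha-2 receptors in fat is often described as setting the lipolytic response to catecholamines. The log2 ratio of *Adrb3* to *Adra2a* counts within a library averaged 7.74 ± 0.89 (SD) over the 7 libraries at 22°C, against 7.97 ± 0.59 (SD) over the 6 at 29°C. These means differed by -0.22, which is less than the spread within either temperature (p = 0.631 in an exact permutation test, two-sided, and 0.728 after adjustment over 4 ratios). The log2 ratio of *Adrb3* to *Adrb1* averaged 6.85 ± 0.60 (SD) over the 7 libraries at 22°C, against 6.57 ± 1.30 (SD) over the 6 at 29°C (exact permutation test, p = 0.621, adjusted p = 0.728). Within the libraries of higher totals the differences were -0.36 and 0.64 (unadjusted p = 0.571 and 0.50 in exact permutation tests). With 2 against 6 libraries no such p can fall below 0.05, so these 2 p-values cannot decide. The smallest p that 7 against 6 libraries allow is 0.00117.

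*Adcy3* encodes an adenylyl cyclase, the enzyme that makes cAMP from ATP. Per exon length it ranked 3 of the 10 adenylyl cyclase genes, with 7.37% of their summed TPM, behind *Adcy6* (39.2%) and *Adcy5* (36.4%). Its rank above *Adcy4* (7.13%) was not sharp. The ranges of the 2 shares overlapped, and the mean at 29°C was 7.11% for *Adcy3* and 7.85% for *Adcy4*. *Adcy3* ranged from 22.6 to 60.3 CPM at 22°C (median 39.5) and from 22.7 to 41.6 CPM at 29°C (median 35.2). At 22°C the 5 libraries of lower totals held 34.1 to 60.3 CPM, and the 2 of higher totals held 22.6 and 23.6 CPM, at the bottom of the range at 29°C. Over all libraries the log2 fold change was 0.19 ± 0.22 (SE; 95% interval -0.29 to 0.67; edgeR P-adj = 0.694), and within the libraries of higher totals it was -0.56 (unadjusted p = 0.0408; edgeR P-adj = 0.365). None of the 9 cyclases tested was called between temperatures, beside 1.94% of all genes tested. Log2 fold changes were -0.01 for *Adcy6* (edgeR P-adj = 0.990) and 0.15 for *Adcy5* (0.727). The exons of *Adcy3* share 1380 of 6246 bases (22.1%) with *Cenpo* on the opposite strand, which had between 48.3% and 78.3% of the count of *Adcy3* in a library and a log2 fold change of 0.14 (edgeR P-adj = 0.619), so the count of *Adcy3* is uncertain by the same limit of strand, and more so than that of *Adrb3*.

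*Pde3b*, the insulin-stimulated phosphodiesterase of fat cells, was the most abundant of the 16 cAMP phosphodiesterase genes, with 48.7% of their summed TPM. It ranged from 351 to 587 CPM at 22°C (median 421) and from 400 to 524 CPM at 29°C (median 476). The 2 lowest libraries at 22°C, replicates 6 and 7, were also the 2 of higher totals. In the pooled fit the log2 fold change was -0.08 ± 0.12 (SE; 95% interval -0.33 to 0.18; edgeR P-adj = 0.773). A level at 22°C between 0.797 and 1.13 times that at 29°C is compatible with this fit. Within the 8 libraries of higher totals the log2 fold change was -0.34 (unadjusted p = 0.0314; edgeR P-adj = 0.342).

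*Pde4d* encodes a cAMP-specific phosphodiesterase of another family, which rises after cAMP stimulation in many cells. It ranged from 5.51 to 53.9 CPM at 22°C (median 15.4) and from 8.48 to 15 CPM at 29°C (median 12). Its 2 highest values, 43.2 CPM in 22°C replicate 1 and 53.9 CPM in 22°C replicate 7, were in the libraries with the most muscle RNA, and its lowest, 5.51 CPM, was in 22°C replicate 6. Cool housing averaged 23.7 ± 17.9 CPM (SD, n = 7), and thermoneutral housing 11.7 ± 2.85 CPM (SD, n = 6). The log2 fold change was 1.02 ± 0.44 (SE; 95% interval 0.08 to 1.95), with an unadjusted p of 0.0362 and an edgeR P-adj of 0.238. It fell to 0.28 with the muscle score as a covariate (edgeR P-adj = 0.870) and to 0.23 without 22°C replicates 1 and 7 (edgeR P-adj = 0.753), and was 1.34 within the libraries of higher totals, which hold 22°C replicate 7 (edgeR P-adj = 0.403). The related *Pde4b*, with 44.3 and 41.9 CPM in the same 2 libraries and at most 18.4 CPM in any other, had a log2 fold change of 1.35 (edgeR P-adj = 0.198). *Pde4b* was chosen for mention after its values were seen. The log2 ratio of *Pde3b* to *Pde4d* counts averaged 4.55 ± 1.21 (SD) over the 7 libraries at 22°C, against 5.34 ± 0.24 (SD) over the 6 at 29°C, a difference of -0.78 (exact permutation test, p = 0.162, adjusted p = 0.648). Without 22°C replicate 6, the unadjusted permutation p was 0.0368, and without 22°C replicates 1 and 7 the difference was -0.17 (p = 0.602 in the same permutation test). Within the libraries of higher totals the difference was -0.92 (p = 0.50 in the same permutation test, where no p below 0.05 is possible).

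**Figure D3:**
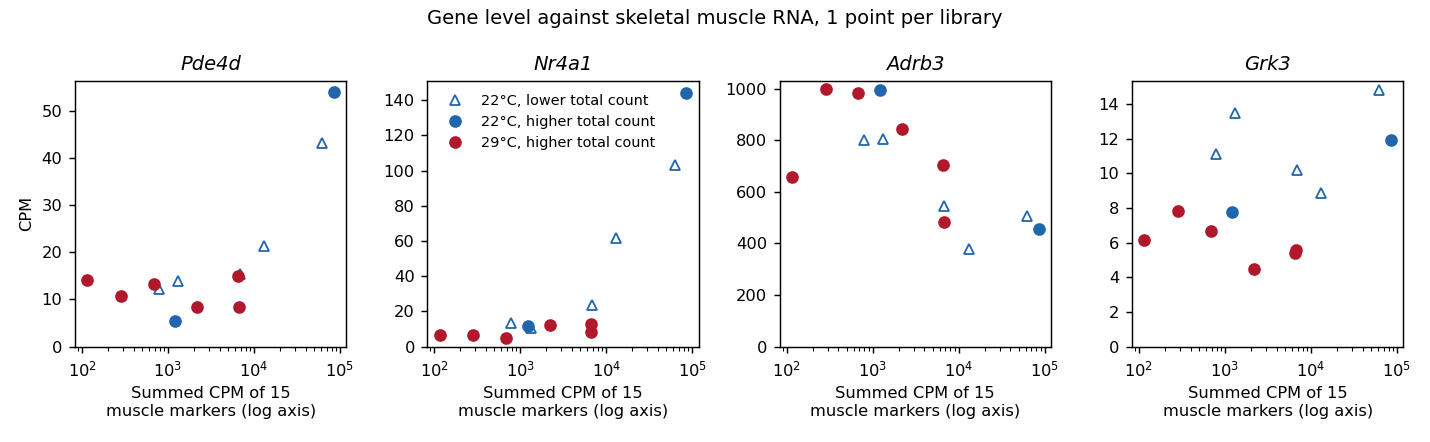
CPM of Pde4d, Nr4a1, Adrb3 and Grk3 (y axes, linear from 0) against the summed CPM of 15 skeletal muscle markers (x axis, log scale), 1 point per library, blue at 22°C (open triangles for lower totals) and red at 29°C. Pde4d and Nr4a1 are highest in the 2 libraries at and beyond 62168 CPM of muscle markers, Adrb3 is lower at higher muscle RNA, and Grk3 is lower in all libraries at 29°C than in 6 of the 7 at 22°C.

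*Prkar2b* encodes the type II beta regulatory subunit of PKA, the form that predominates in white fat, and it made up 69.8% of the summed TPM of the 4 PKA regulatory subunits. *Prkar1a* followed with 23.7% and *Prkar2a* with 5.92%. *Prkar2b* ranged from 408 to 696 CPM at 22°C (median 494) and from 435 to 727 CPM at 29°C (median 560). The log2 fold change was -0.07 ± 0.14 (SE; 95% interval -0.37 to 0.23; edgeR P-adj = 0.830), and within the libraries of higher totals it was -0.33 (edgeR P-adj = 0.514). The log2 ratio of *Prkar2b* to *Prkar1a* counts averaged 1.30 ± 0.22 (SD) over the 7 libraries at 22°C, against 1.34 ± 0.24 (SD) over the 6 at 29°C (exact permutation test, p = 0.728, adjusted p = 0.728). Within the libraries of higher totals the difference was -0.28 (unadjusted permutation p = 0.143, where no p below 0.05 is possible). *Prkar2b* followed the adipocyte score, the mean log2 CPM of the 10 adipocyte markers, more closely than the other 8 genes did (r = 0.85, rho = 0.81, and r = 0.82 without the 2 libraries farthest from the median; 13 libraries, each value centred on its temperature, as a description). For *Pde3b* the same r was 0.71, and 0.44 without those 2 libraries.

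*Kcnk3*, also called TASK-1, is a potassium channel of the tandem-pore-domain family that holds the membrane potential of cells and has been described in adipocytes as a brake on adrenergic signalling. Per exon length it was the most abundant of the 6 channels of its family tested, with a mean of 18.8 TPM over the 13 libraries. *Kcnk3* ranged from 9.36 to 56.9 CPM at 22°C (median 24.8) and from 13.9 to 36.3 CPM at 29°C (median 26.6). As for *Adcy3*, the libraries at 22°C divided by library total, with 23.1 to 56.9 CPM in replicates 1 to 5 and 9.71 and 9.36 CPM in replicates 6 and 7, which lay below every library at 29°C. Over all 13 libraries the log2 fold change was 0.31 ± 0.42 (SE; 95% interval -0.60 to 1.21; edgeR P-adj = 0.742), and it was -1.39 (unadjusted p = 0.00818; edgeR P-adj = 0.272) within those of higher totals. Temperature and library total are partly confounded here, and the part of the library total in this turn of sign was not tested. *Gm9899*, which shares 229 of 3976 exon bases (5.76%) with *Kcnk3* on the opposite strand, had the same pattern as *Kcnk3* over the 13 libraries (r = 0.99), and its reads cannot be separated from those of *Kcnk3* without the strand setting.

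**Figure D4:**
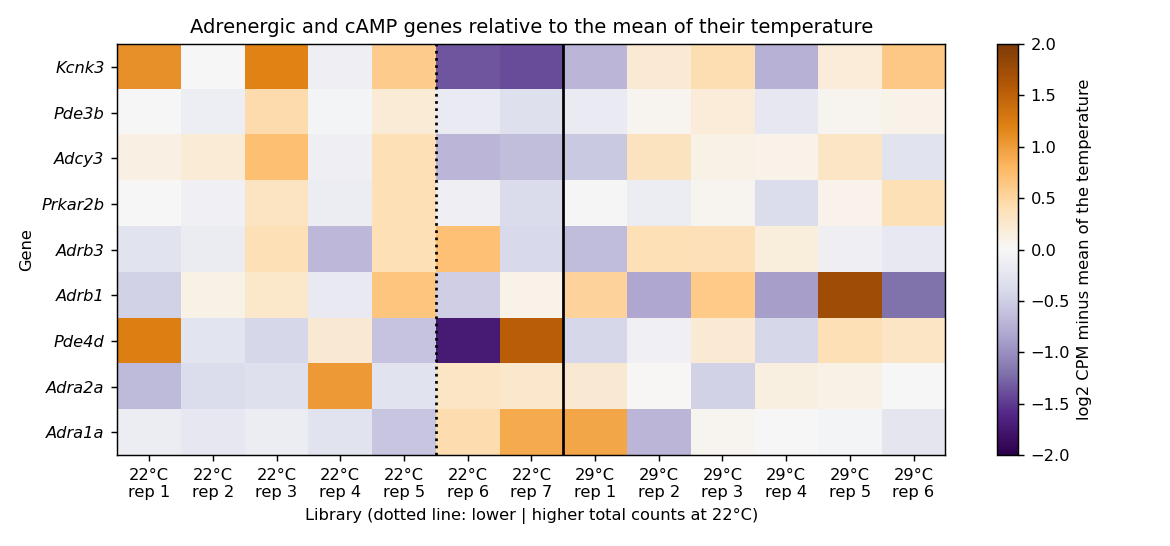
Log2 CPM of the 9 genes (rows) in each library (columns) minus the mean of the library's temperature, from purple (2 lower) to orange (2 higher), with a solid line between 22°C and 29°C and a dotted line between lower and higher library totals at 22°C. Kcnk3 and Adcy3 are low in 22°C replicates 6 and 7 where Adra1a is high, and the deep colours of Pde4d, Adrb1 and Adra2a fall in a few libraries.

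Around the mean of each temperature, *Pde3b* varied together with *Kcnk3*, *Prkar2b* and *Adcy3* over the 13 libraries. Pearson's r, here a description only, was 0.85 for *Pde3b* with *Kcnk3* (rho = 0.88), 0.82 for *Pde3b* with *Prkar2b* (rho = 0.85), 0.76 for *Pde3b* with *Adcy3* (rho = 0.72), 0.78 for *Adcy3* with *Kcnk3* (rho = 0.69) and 0.73 for *Prkar2b* with *Kcnk3* (rho = 0.79). For *Prkar2b* with *Adcy3* it was lower, 0.44 (rho = 0.49). Within the 8 libraries of higher totals the same 6 values were, in this order, 0.91, 0.69, 0.33, 0.32, 0.72 and -0.32, so the pairs with *Adcy3* were weaker or of the other sign there. These 8 libraries also lack 5 of the 7 at 22°C, and the part of the library total in this fall was not tested. *Adra1a* ran against *Adcy3* (r = -0.75, rho = -0.60) and against *Kcnk3* (r = -0.69, rho = -0.54). *Adra2a* also ran against *Kcnk3* (r = -0.59, rho = -0.78), so such opposition was not particular to 1 pair. For *Adrb1* no r with any of the other 8 genes was above 0.26 in size over all libraries, but without the 2 farthest libraries r was 0.61 with *Prkar2b* and 0.40 with *Pde3b*. The libraries behind these values share a depth split and a varying share of muscle RNA.

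Among 15734 tested genes with a mean of at least 1 CPM, the genes most like each of the 9 over the 13 libraries, by Pearson's r of the centred log2 CPM, were as follows. *Prkar2b* was closest to the fatty acid transporter *Cd36* (r = 0.94) and to *Ntm* (0.93). *Pde3b* was closest to *Gpbp1l1* (0.97) and *Ndc1* (0.95), *Adcy3* to *Celsr2* (0.97) and *Tmem245* (0.94), and *Kcnk3*, after the overlapping *Gm9899*, to *H2-Q10* (0.95). The genes closest to *Adrb3* were *Zfp784* (0.92) and *Gm15265* (0.91), and those closest to *Adra2a* were *Mgat3* and *Dlg2* (0.93 each). For *Pde4d* they were the microRNA gene *Mir3113* (0.97) and *Satb1* (0.95), for *Adrb1* *Gm49668* (0.93) and *Gm19144* (0.87), and for *Adra1a* *Gm40578* (0.89) and *Rpl22l1* (0.84). These are the highest of many correlations over few libraries, and none of the genes named as most alike was called between temperatures in edgeR.

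Of the wider pathway, 130 genes in 13 lists (the 9 included) were followed, and 115 passed the filter. Of these 115, 4 were called between temperatures, beside 1.94% of all genes tested, namely *Grk3*, *Pde8a* and *Nr4a1*, which were higher at 22°C, and *Akap12*, which was lower. All 4 lost the call within the libraries of higher totals, with a term for the split in library totals and with the muscle score as a covariate. Those fits called 8 of 19033, 4 of 17779 and 44 of 17779 genes, in that order, so most calls of the pooled fit were lost there. All 4 genes kept their direction in them. In the pooled fit the pathway held 24 of 115 genes (20.9%) at an unadjusted p below 0.05, beside the 18.5% of all genes tested.

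*Grk3* encodes a G protein-coupled receptor kinase, 1 of the enzymes that phosphorylate activated receptors and start their desensitization. It ranged from 7.74 to 14.8 CPM at 22°C (median 11.1) and from 4.48 to 7.83 CPM at 29°C (median 5.86). All libraries at 22°C except replicate 6 lay above the range at 29°C. For *Grk3* the log2 fold change was 0.89 ± 0.17 (SE; edgeR P-adj = 0.0486), and 0.77 without 22°C replicates 1 and 7 (edgeR P-adj = 0.0754). It was 0.70 within the libraries of higher totals (edgeR P-adj = 0.292) and 0.89 with the muscle score as a covariate (edgeR P-adj = 0.134), and the call was lost without 29°C replicate 3 (edgeR P-adj = 0.115). None of the other 7 desensitization genes was called, among them *Arrb1*, an arrestin (log2 fold change -0.07, edgeR P-adj = 0.668), and *Grk2* (0.09, P-adj = 0.352).

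*Pde8a*, a phosphodiesterase with high affinity for cAMP, ranged from 44.3 to 56.3 CPM at 22°C (median 52.1) and from 32.6 to 45.7 CPM at 29°C (median 38.6), and 6 of 7 libraries at 22°C lay above all at 29°C. The change of *Pde8a* on the log2 scale was 0.38 ± 0.09 (SE; edgeR P-adj = 0.0759), and 0.35 without 22°C replicates 1 and 7 (edgeR P-adj = 0.133). It was 0.49 within the libraries of higher totals (edgeR P-adj = 0.267) and 0.42 with the muscle score as a covariate (edgeR P-adj = 0.151). None of the other 14 phosphodiesterases tested was called, *Pde2a* included (-0.07, edgeR P-adj = 0.809). *Akap12*, a scaffold that anchors PKA near beta receptors, ranged from 77.7 to 130 CPM at 22°C (median 98.4) and from 121 to 155 CPM at 29°C (median 136), and 5 of 6 libraries at 29°C lay above all at 22°C. The change of *Akap12* on the log2 scale was -0.48 ± 0.12 (SE; edgeR P-adj = 0.0864), and -0.38 without 22°C replicates 1 and 7 (edgeR P-adj = 0.128). It was -0.73 within the libraries of higher totals (edgeR P-adj = 0.167) and -0.41 with the muscle score as a covariate (edgeR P-adj = 0.236). Of the other 9 anchoring and Epac genes none was called, with 0.15 for *Akap13* (edgeR P-adj = 0.209).

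*Nr4a1*, an orphan nuclear receptor and immediate early gene induced by cAMP and by many other stimuli, showed the greatest log2 fold change of the 4. It ranged from 10.6 to 144 CPM at 22°C (median 23.5) and from 4.87 to 13.1 CPM at 29°C (median 7.42). Its highest values, 103 and 144 CPM, were in 22°C replicates 1 and 7, the libraries rich in muscle RNA, and the next, 61.8 CPM, was in replicate 4, which had the next most muscle RNA with 13069 CPM. The log2 fold change was 2.61 ± 0.66 (SE; edgeR P-adj = 0.0899), 1.49 without 22°C replicates 1 and 7 (edgeR P-adj = 0.169) and 1.05 with the muscle score as a covariate (edgeR P-adj = 0.479). Within the libraries of higher totals it was 3.19 (edgeR P-adj = 0.232). Of the 11 cAMP-induced genes tested, 10 had a positive log2 fold change, beside 51.6% of all genes tested, and their median was 0.87. An unadjusted p below 0.05 was found for 6 of the 11, beside 18.5% of all genes tested, but *Nr4a1* was the only 1 called. These counts over the list come from the pooled fit, and the part of muscle RNA or library totals in them was not tested. The clock gene *Per1*, which took the most counts of the list, had a log2 fold change of 0.27 (edgeR P-adj = 0.516).

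**Figure D5:**
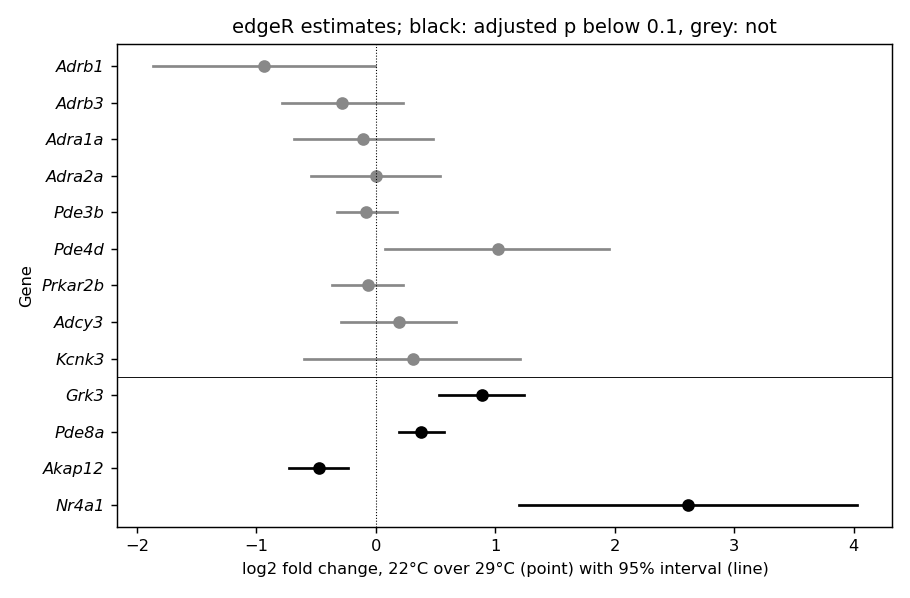
Log2 fold change of 22°C over 29°C (x axis) from edgeR with its 95% interval for the 9 genes (above the line, grey) and the 4 other pathway genes with P-adj below 0.1 (below the line, black). The intervals of the 9 genes include 0 except those of Adrb1 and Pde4d, which exclude it narrowly and do not pass adjustment.

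No gene of the remaining pathway lists passed the test in either direction, where 1.94% of all genes tested were called, a share at which short lists mostly hold no call. This was so for the 13 other receptors that act on adipocyte cAMP (*Tshr* -0.19, edgeR P-adj = 0.294; *Hcar1* -0.14, P-adj = 0.830), the 7 G protein alpha subunits (*Gnas* 0.07, P-adj = 0.763; *Gnai2* -0.19, P-adj = 0.391) and the 9 PKA subunits and inhibitors (*Prkar1a* -0.03, P-adj = 0.814). The 9 CREB factors and coactivators (*Sik2* -0.11, P-adj = 0.614; *Sik3* 0.10, P-adj = 0.453) and the 6 lipolytic targets of PKA (*Pnpla2* -0.07, P-adj = 0.825; *Lipe* 0.05, P-adj = 0.867) gave no call either. Of the 7 genes tested for synthesis, uptake and breakdown of catecholamines, 2 had a positive log2 fold change (51.6% of all genes tested) and 3 an unadjusted p below 0.05 (18.5% of all genes tested), with -0.28 for *Slc22a3* (P-adj = 0.450). *Th*, *Ddc* and *Dbh*, which encode the enzymes of catecholamine synthesis, were too low to test. Of the 6 tandem-pore potassium channels tested, none was called, and *Kcnk2*, the next after *Kcnk3* per exon length, had -0.16 (P-adj = 0.756).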

How the data were processed

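RNA of gluteal WAT from 13 mice was grouped by the housing temperature in the labels. The authors used STAR 2.7.5a for alignment and featureCounts for counting, and deposited raw counts per gene and regularized log2 values from DESeq2, per the submitters' processing notes and the paper's methods. The notes name the build GRCm39. The annotation release and strand setting are not given in the sources used here. Symbols were matched by gene identifier (34006 of 34419), and exon lengths for TPM came from GENCODE M21.

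Counts were compared with edgeR 4.0.16 (R 4.3.3), with TMM scaling, filterByExpr, the quasi-likelihood F test, Benjamini-Hochberg adjustment over all 17779 genes tested and a threshold of 0.1. Standard errors were taken from the log2 fold change and F (absolute change over root F). CPM are TMM-scaled, with a prior count of 2 for log2 CPM. Ratios of counts used a pseudocount of 0.5 and exact permutation tests. Counting error alone lets a gene with no counts have up to 3, which is 0.119 to 0.134 CPM by library. The lowest chi-square per gene over 78 pairs of libraries was 16.6, so no library was counted as a duplicate. Methods were tested on simulated counts.

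Alternatives were DESeq2 1.42.0, its size factors, other filters, robust fitting, the replicate block, leaving out each mouse, the cluster of library totals, the muscle or adipocyte score as covariates, muscle markers removed, limma 3.58.1 on the deposited log2 values and a threshold of 0.05; leaving out 22°C replicates 1 and 7 together was chosen after seeing the data. The genes, the lists and the tests were chosen with earlier results of these data known. Genes named are the 9, the adrenergic receptors, the called genes and 2 tested genes of highest CPM in each pathway list, the 2 genes most like each of the 9, and markers that move with them. Some genes that this rule gives are not reported.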

Additional observations from a re-analysis of the deposited data

Results flagged for a closer look

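Among 34 sets of libraries (the values of each of 17 measures, the CPM of 13 genes and 4 log2 ratios, at each temperature), 3 held a library whose gap to the next exceeded Dixon's 95% limit, where chance flags about 1 set in 20. *Adra1a* was 30.8 CPM in 29°C replicate 1, and the next highest at 29°C was 16.9 CPM. Without this library its log2 fold change was 0.14 in place of -0.11. *Adra2a* was 5.83 CPM in 22°C replicate 4, and the next highest at 22°C was 3.51 CPM. The log2 ratio of *Adrb3* to *Adrb1* counts was 8.06 in 22°C replicate 6, and the next highest at 22°C was 7.04.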

How the results depend on the processing

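None of the 9 genes was called in any alternative. The count of calls over all genes (345) moved to 1676 with DESeq2, 42 without a filter on low counts, 4 with a term for the split in library totals, 8 within the libraries of higher totals, 44 with the muscle score as a covariate and 40 at P-adj below 0.05, and to between 32 (without 29°C replicate 3) and 652 (without 22°C replicate 6) when 1 mouse was left out; every library except 22°C replicate 2 moved it by over 1.5 times. It was 263 without 22°C replicates 1 and 7. The share of higher calls was 37.7% in edgeR and 54.5% with DESeq2. Without 22°C replicate 1, 22°C replicate 7 or 29°C replicate 1, no unadjusted p of the 9 genes was below 0.05.

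With the term for library totals and within the higher totals, log2 fold changes turned sign for *Adra1a* (0.498 and 0.492), *Adcy3* (-0.549 and -0.557) and *Kcnk3* (-1.38 and -1.39). With the muscle and the adipocyte score as covariates they turned for *Pde3b* (0.0303 and 0.0230), *Prkar2b* (0.0903 and 0.0877) and *Adra2a* (-0.0871 and -0.0946). *Adra2a* also turned without a filter (-0.00146), with the block (-0.122) and in limma (-0.0383), and *Prkar2b* (0.00153) and the ratio of *Prkar2b* to *Prkar1a* (0.0160) without 22°C replicates 1 and 7. The causes were not tested. Leaving out 1 mouse gave -0.304 to 0.141 for *Adra1a*, -0.237 to 0.101 for *Adra2a* and -0.143 to 0.0188 for *Prkar2b*. It gave differences of -0.401 to 0.0630 for log2 *Adrb3*:*Adra2a*, -0.0924 to 0.525 for *Adrb3*:*Adrb1*, -1.04 to -0.473 for *Pde3b*:*Pde4d* and -0.101 to 0.0344 for *Prkar2b*:*Prkar1a*.

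*Grk3*, *Pde8a*, *Akap12* and *Nr4a1* kept their direction in all alternatives, and all were called by DESeq2. All lost the call with the term for library totals, with the muscle score as a covariate and within the higher totals. Their log2 fold changes in these fits were 0.699 to 0.892 for *Grk3* (0.889 in the pooled fit), 0.421 to 0.495 for *Pde8a* (0.381), -0.734 to -0.409 for *Akap12* (-0.482) and 1.05 to 3.19 for *Nr4a1* (2.61), lowest with the muscle score for the last. *Pde8a*, *Akap12* and *Nr4a1* also lost it without a filter (edgeR P-adj 0.156, 0.165 and 0.170), with the adipocyte score (0.106, 0.124 and 0.157), at P-adj below 0.05 and without 22°C replicates 1 and 7, and *Nr4a1* in the robust fit (0.118) and limma (0.162). Leaving out 1 mouse ended the call of *Pde8a* for 22°C replicates 1, 3 and 7 and 29°C replicates 1, 2, 3 and 5 (edgeR P-adj up to 0.170), of *Akap12* for all but 22°C replicates 2, 3 and 6 (up to 0.175), and of *Nr4a1* for all but 22°C replicates 2, 3, 5 and 6 (up to 0.209).

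Replicate numbers name separate mice, and the main tests took the libraries as unpaired. The deviations of same-numbered libraries correlated between 0.038 and 0.579 (5 of 6 at or above 0.387). Of these libraries at 22°C, 4 of 6, not every one, correlated best with their own number. What same-numbered libraries share was not tested. With the replicate block 263 genes were called, none of the 9; *Pde8a* was no longer called (edgeR P-adj = 0.111), *Nr4a1* had a log2 fold change of 1.65 (edgeR P-adj = 0.0976), and the difference of log2 *Prkar2b*:*Prkar1a* was 0.00604.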
